A study of Mus musculus with 25 samples.

Results

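The collagen and laminin genes of the mouse pituitary were described in animals that lack gonadotropin-releasing hormone (GnRH) and received it, or not, by injection. Members were all genes whose symbol names a numbered collagen chain or a laminin alpha, beta or gamma chain, kept where the mean over the animals was at least 3 on the regularized log2 (rlog) scale of the deposited table. Of 55 such symbols, 53 met the rule, among 47069 genes in the table and 19141 with a mean of at least 3. The 53 were 42 collagen chains and 11 laminin chains. By type, 11 were fibrillar collagens, 17 belonged to the basement membrane (6 type IV collagen and 11 laminin chains) and 25 were of other types. Col6a5 with a mean of 4.21 and Col9a1 with 4.41 lay just inside the minimum, and Col22a1 with 2.82 and Col10a1 with 2.57 lay outside it.

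The animals were homozygous hypogonadal (hpg/hpg) mice, which carry a deletion in the GnRH gene, so all 4 groups share the lack of the body's own GnRH. Each of the 25 animals gave 1 bulk pituitary library. Placebo females (n = 5, animals 1 to 5) and placebo males (n = 6, animals 12 to 17) received saline. GnRH females (n = 6, animals 6 to 11) and GnRH males (n = 8, animals 18 to 25) received 1 µg GnRH intraperitoneally each day over 10 days, and tissue was taken 1 h after the last dose. The sources used here give no ages. Whole pituitaries were used, so each library mixes all cell types of the gland. The comparison of treatments asks which transcripts differ after repeated GnRH, and the comparison of sexes asks which differ between males and females.

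Collagens are secreted proteins in which chains with a glycine in each triplet of residues wind into a shared helix. Fibrillar collagens form the strong fibres of connective tissue, while type IV collagen and the laminins, which are trimers of an alpha, a beta and a gamma chain, form the sheet-like basement membranes under epithelia and around capillaries. In the anterior pituitary, basement membranes surround the capillaries and the cords of hormone cells, fibroblasts and pericytes are known makers of collagen, and the posterior lobe is a neural tissue with a matrix of its own.

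The repeat that sets fibrillar from type IV collagen can be read in the coding sequences of the reference transcripts (GENCODE, GRCm38). The stretches below, 5′ to 3′ on the coding strand, are codons 675 to 698 of Col1a1 (gene at chr11:94936224-94953042, plus strand), 680 to 703 of Col3a1 (chr1:45311538-45349706, plus strand) and 212 to 235 of Col4a1 (chr8:11198423-11312826, minus strand). They were chosen to show the unbroken repeat of fibrillar chains beside the interrupted repeat of a type IV chain. Capitals mark glycine codons.
Col1a1: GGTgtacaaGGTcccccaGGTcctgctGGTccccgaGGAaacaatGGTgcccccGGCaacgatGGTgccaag
Col3a1: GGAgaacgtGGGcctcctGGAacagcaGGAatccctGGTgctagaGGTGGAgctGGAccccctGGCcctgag
Col4a1: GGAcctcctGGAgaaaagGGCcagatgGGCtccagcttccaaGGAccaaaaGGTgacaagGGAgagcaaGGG
In Col4a1 the repeat stops after codon 223 and starts again at codon 226. The longest unbroken run of such triplets held 338 in Col1a1, 344 in Col3a1 and 40 in Col4a1. Col4a1 had 16 separate runs of at least 5 triplets. Col24a1 with 216 and Col27a1 with 217 had the shortest longest run among the 11 fibrillar chains, and none of the 11 laminin chains had a run.

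The 6 type IV collagen genes lie in 3 pairs that point away from each other, which puts the starts of both genes of a pair close together. The first exons of Col4a1 (minus strand) and Col4a2 (plus strand) overlap by 22 bases, the starts of Col4a4 (minus strand) and Col4a3 (plus strand) are 71 bases apart, and those of Col4a6 (minus strand) and Col4a5 (plus strand) are 1308 bases apart. The sequences below show these shared starts on the plus strand of GRCm38, which carries the mm10 coordinates: the exon overlap at chr8:11312805-11312826, the gap at chr1:82586850-82586920 and, for the wide pair, the 120 bases next to the start of Col4a6 at chrX:141474077-141474196. Capitals mark the GC box, GGGCGG, searched on both strands.
Col4a1/Col4a2: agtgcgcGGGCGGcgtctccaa
Col4a4/Col4a3: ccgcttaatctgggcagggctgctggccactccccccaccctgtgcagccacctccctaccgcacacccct
Col4a6/Col4a5: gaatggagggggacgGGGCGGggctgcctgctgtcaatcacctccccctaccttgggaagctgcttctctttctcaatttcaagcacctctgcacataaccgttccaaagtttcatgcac
The GC box occurred once in the first and once in the last of these stretches, and neither CCAAT nor TATAAA occurred in any of the 3. Among 43 RefSeq promoter windows of 39 members, 24 held GGGCGG in the 250 bases before the start (55.8%), against 32.7% of 32851 promoters. CCAAT was found in 14 of the 43 (32.6%, against 33.9% of all) and TATAAA in 4 (9.3%, against 12.4%). These matches are descriptions of letters and not of bound sites.

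Levels were compared between genes after subtracting the log2 of the exon length in kb from the rlog value, and the following levels are on that per-length log2 scale. Col1a2, a chain of type I collagen, had the highest level at 8.41. It was followed by Col4a1 at 8.15, Col27a1 at 8.01, Col4a2 at 7.84 and the laminin chains Lamc1 at 7.99 and Lamb2 at 7.78. Col1a1, the partner of Col1a2 in type I collagen, stood at 7.54, and Col3a1, the chain of type III collagen, at 5.93. The lowest levels were those of Col6a5 at 0.971, Col6a6 at 1.88 and Col9a1 at 2.07. The median was 6.05 for fibrillar, 5.85 for basement membrane and 4.37 for other types, and the ranges of the classes overlapped.

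**Figure D1:**
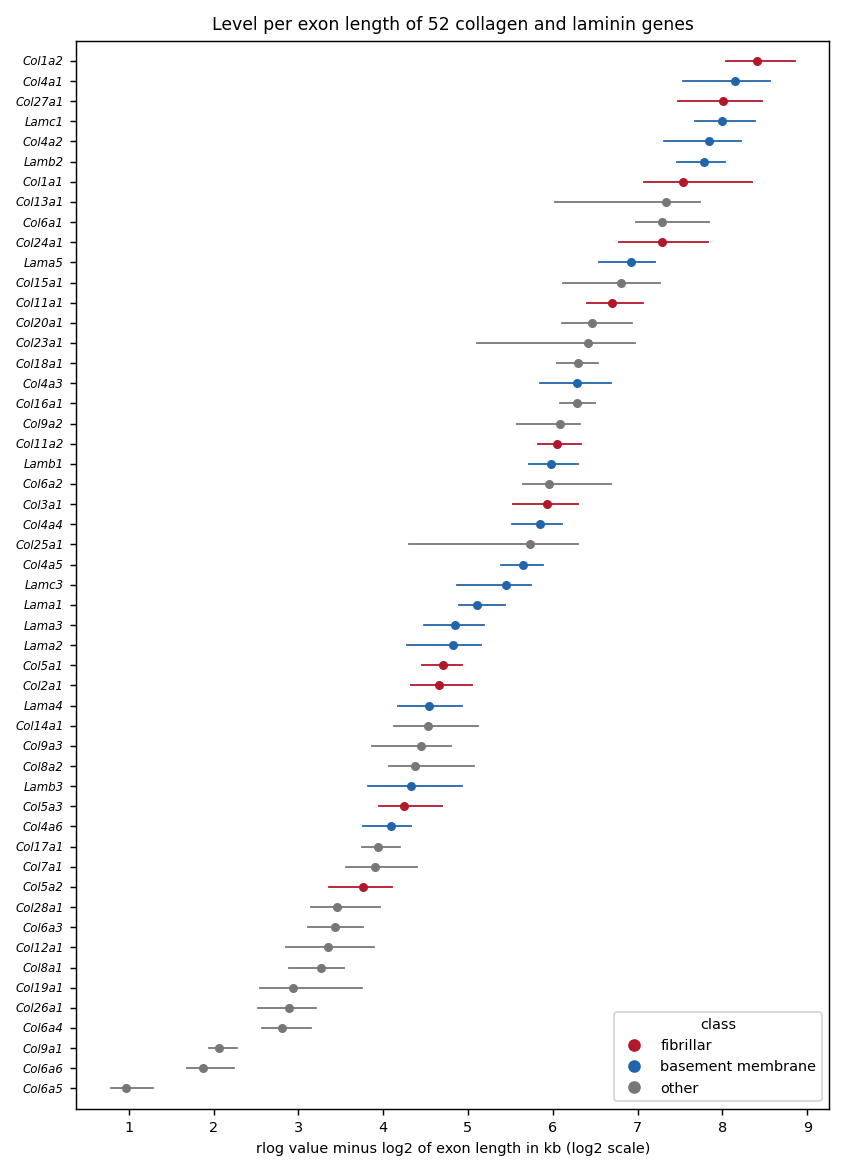
Level per exon length of 52 of the 53 genes: the x axis is the rlog value minus log2 of the exon length in kb, dots are means over 25 animals and lines run from the lowest to the highest animal. Fibrillar and basement membrane chains fill the top 7 places, from Col1a2 at 8.41 to Col1a1 at 7.54, and the lines of Col13a1, Col23a1 and Col25a1 reach far to the left.

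Among the laminins, the beta and gamma chains Lamb2 (7.78) and Lamc1 (7.99) stood above Lamb1 (5.98), Lamb3 (4.33) and Lamc3 (5.45). Lama5 at 6.92 was the highest alpha chain, ahead of Lama1 (5.11), Lama3 (4.85), Lama2 (4.82) and Lama4 (4.53). Among type IV chains the order was Col4a1, Col4a2, Col4a3 (6.29), Col4a4 (5.85), Col4a5 (5.64) and Col4a6 (4.10), which follows the 3 gene pairs. The beaded filament collagen type VI needs the chains Col6a1, Col6a2 and one more, and its genes stood at 7.29 for Col6a1, 5.95 for Col6a2 and 3.43 for Col6a3. Exon lengths are those of all annotated exons of a gene, so a gene with many unused exons has too low a level on this scale. Where exons of a member overlap another annotated gene, as those of Col4a1 and Col4a2 do, a single overlap covers at most 6.27% of the member's exon bases (Lamc3), and the sources used here do not say whether reads were counted by strand.

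Some libraries stood apart in markers of other tissue. The mean of 9 posterior lobe markers (without Col25a1, a member) was 6.54 in animal 2, a placebo female, and 6.65 in animal 19, a GnRH male, against 6.90 to 7.47 in the other animals. The mean of 6 meninges and capsule markers was 7.51 in animal 6, a GnRH female, against 6.44 to 6.92 in the others. Results of collagen and laminin genes that rest on these animals are given with and without them. Counts of marker genes are given with all animals only. The mean of the 10 hormone cell markers lay between 13.65 and 14.39 in all libraries and was higher with GnRH. It ran from 13.65 to 13.93 in placebo and 14.02 to 14.39 in GnRH females. In males it ran from 13.66 to 14.02 with placebo and 14.01 to 14.37 with GnRH. Of these markers 2, Fshb and Lhb, which encode the gonadotropin beta chains, rose with GnRH averaged over the sexes (adjusted p = 4.55e-09 and 0.0141 by limma). The 25 libraries correlated with each other at 0.992 to 0.999 over the 19141 genes.

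No collagen or laminin gene passed the threshold of an adjusted p of 0.05 in any of the 6 comparisons (limma, Benjamini-Hochberg over 19141 genes). Over all genes the share called was 0.0993% for GnRH in females, 0.496% in males, 1.71% averaged over the sexes and 0% for the sex difference in the response to GnRH (male minus female effect; 2.76% at an unadjusted p under 0.05). It was 0.0470% for sex with placebo and 0.0522% for sex with GnRH, so with 53 members a count of 0 or 1 is near the background in each comparison. The smallest adjusted p among members (limma) was 0.467 in females, 0.441 in males, 0.235 averaged, 0.999 for the sex difference in the response, 0.999 for sex with placebo and 0.830 for sex with GnRH. No member had groups without overlap, against 0.768% of all genes in females, 0.402% in males, 0.345% for sex with placebo and 0.0940% for sex with GnRH. Less RNA per cell and fewer cells of a type cannot be told apart in these bulk libraries.

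The intervals bound what a difference could be on the rlog scale. For GnRH averaged over the sexes, the 95% confidence intervals of all 53 members lay between -0.49 and 0.40, so within 0.5 on either side of 0. In females 49 of 53 intervals lay within 0.5 of 0, and all lay between -0.48 and 0.63. In males 49 of 53 lay within 0.5, and all lay between -0.79 and 0.54. Col25a1, Col23a1 and Col13a1, which vary most between animals, had the 3 lowest bounds in males and the 3 highest in females. The median difference of the 53 was 0.06 in females (41 positive, 50.1% positive among all genes) and -0.05 in males (18 positive, 48.5% among all genes). The medians over all genes were 0.00025 and -0.0022. The female median of the 53 was 0.02 without animals 2 and 19, and 0.02 without animal 6. The positive count in females rests partly on single animals: among the 25 other types it was 19, but 12 without animals 2 and 19 and 14 without animal 6.

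**Figure D2:**
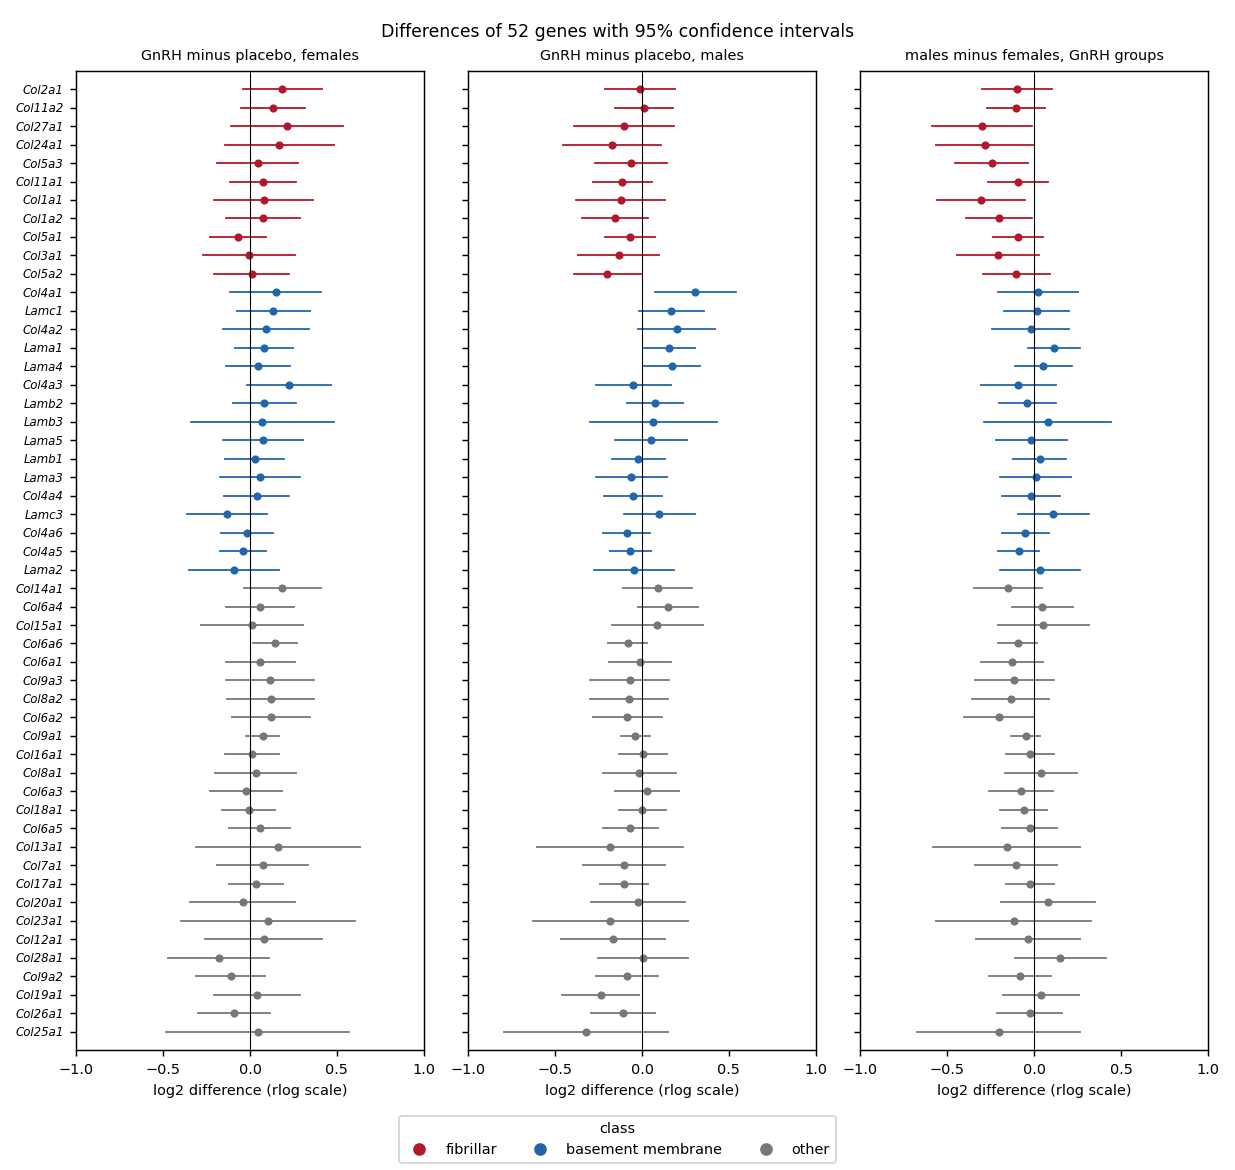
Differences of 52 of the 53 genes on the rlog scale (x axis, log2) with 95% confidence intervals for GnRH minus placebo in females, in males, and for males minus females with GnRH. All 11 fibrillar genes lie left of 0 in the last panel, and Col4a1 has the highest value in males, 0.31.

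Col4a1 and Col4a2, the chains of the common type IV collagen of basement membranes, had the following values. Col4a1 was at 11.02, 10.88, 11.30, 10.98 and 10.76 in the placebo females. In GnRH females it ran from 10.96 to 11.46 with a median of 11.13. Its lowest, median and highest values were 10.44, 10.84 and 11.37 in placebo males and 10.86, 11.16 and 11.44 in GnRH males. The groups overlapped in both sexes, and the placebo males had the widest spread (SD 0.33). The difference was 0.15 in females (SE 0.13), 0.31 in males (SE 0.11, 95% interval 0.07 to 0.54) and 0.23 averaged (SE 0.09, unadjusted p = 0.0129 and adjusted p = 0.235 by limma, 0.0729 to 0.404 over the alternatives). Col4a1 thus had the smallest p of all members in the averaged comparison and did not pass. Col4a2 ran from 10.25 to 10.85 in placebo and 10.52 to 10.92 in GnRH females, and from 10.03 to 10.94 in placebo and 10.43 to 10.79 in GnRH males. Its averaged difference was 0.15, with an interval of -0.02 to 0.31.

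The laminin chains nearest to Col4a1 in p were Lamc1 and Lama1. Lamc1 encodes the gamma 1 chain shared by most laminins. Its values were 11.09, 10.74, 10.90, 11.07 and 11.04 in placebo females, and its lowest, median and highest were 10.73, 11.10 and 11.43 in GnRH females, 10.72, 11.03 and 11.10 in placebo males and 11.00, 11.07 and 11.40 in GnRH males. The groups overlapped, and the averaged difference was 0.15 (SE 0.07, unadjusted p = 0.0373, adjusted p = 0.375 by limma). Lama1, the alpha 1 chain, had an averaged difference of 0.12 (SE 0.05, adjusted p = 0.377 by limma). Lamb1, the beta 1 chain that joins with these in laminin, had an averaged difference of 0.0022 with an interval of -0.11 to 0.12. Lama4, an alpha chain of vessel walls, differed by 0.17 in males (interval 0.01 to 0.33) and 0.05 in females.

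These basement membrane chains made up all 3 members with an unadjusted p under 0.05 in the averaged comparison (5.66% of the 53, against 12.0% of all genes). The 3 in the male comparison were Col4a1, Lama1 and Lama4, all with a positive difference, with Col5a2 and Col19a1 as negative ones (5 of 53, 9.43%, against 6.42% of all genes). In females the count was 1, Col6a6 (1.89%, against 9.57% of all genes). Single animals move these small counts. The averaged count was 1 without animal 9, 16, 21 or 25 and 5 without animal 10, 14 or 17. The male count was 2 without animal 15, 16 or 22, 3 without animal 12, 13, 21, 23, 24 or 25, and 6 without animal 17. The female count was 2 without animal 4, 8 or 9, without animals 2 and 19 together or with array weights, and 3 without animal 10. Endothelial markers were measured beside them: all 10 had a positive averaged difference with a median of 0.14, and the list mean lay between 8.71 and 9.01 in placebo females, 8.89 and 9.13 in GnRH females, 8.83 and 8.92 in placebo males and 8.82 and 9.18 in GnRH males. Of these markers Emcn and Plvap, membrane proteins of capillary endothelium, rose. The Emcn means were 9.23 in placebo and 9.46 in GnRH females and 9.14 in placebo and 9.41 in GnRH males, an averaged difference of 0.25 (SE 0.05, adjusted p = 0.00289 by limma). The averaged difference of Plvap was 0.18 (SE 0.04, adjusted p = 0.0239 by limma). The adjusted p of Plvap reached 0.0602 among 33 alternatives and missed the threshold under quantile normalization, without animal 1 and without animal 6. All 10 pericyte and smooth muscle markers also had a positive averaged difference, with a median of 0.12 and none past the threshold. The part of these cells in the Col4a1 values was not tested.

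**Figure D3:**
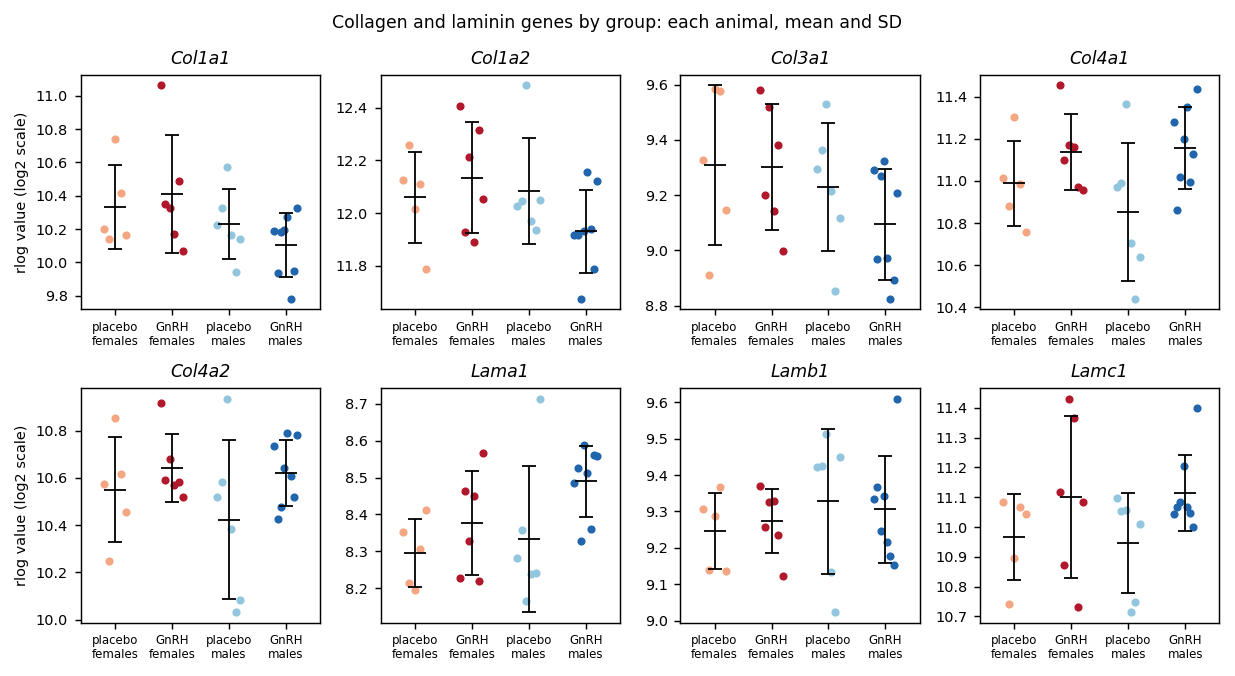
Values of 8 members in each animal (dots, rlog scale on the y axis) by group, with the mean and SD in black. The groups overlap in every panel, and the highest Col1a1 value, 11.06, belongs to a GnRH female.

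No fibrillar collagen passed in either sex, and 3 of the 11, Col3a1, Col5a1 and Col11a2, had a difference of the same sign in both. Col1a1 was at 10.20, 10.14, 10.74, 10.42 and 10.16 in placebo females. Its lowest, median and highest values were 10.07, 10.34 and 11.06 in GnRH females, 9.94, 10.19 and 10.57 in placebo males and 9.78, 10.19 and 10.33 in GnRH males. Animal 6 was the highest of all 25, and the groups overlapped. The GnRH difference was 0.08 in females (interval -0.21 to 0.36) and -0.12 in males (interval -0.38 to 0.13). Without animal 6 the Col1a1 difference in females was negative. Col1a2 differed by 0.08 in females and -0.15 in males, and Col3a1 by -0.0066 and -0.14. In males 10 of 11 fibrillar genes had a negative difference with a median of -0.11, and in females 9 of 11 had a positive one with a median of 0.08. Without animal 6, and likewise without animals 2 and 19, the count in females was 7 of 11. The male minus female GnRH effect was negative for 11 of 11 (50.3% of all genes were positive), Col5a1 lying at about 0, with a median of -0.20. Without animals 2 and 19 it was negative for 10 of 11 with a median of -0.13. The smallest adjusted p among them was 0.999 by limma, and the interval for Col1a2 was -0.51 to 0.05.

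The same 11 genes were all lower in GnRH males than in GnRH females, with a median of -0.20 (50.1% of all genes were positive). The count stayed at 11 of 11 under each alternative run for that comparison, the fit without animal 6 included, where the median was -0.15. Unadjusted p was under 0.05 for Col1a1 (-0.31, interval -0.56 to -0.05), Col5a3 (-0.25), Col27a1 (-0.30), Col24a1 (-0.28) and Col1a2 (-0.20), and for Col6a2 among the other types (-0.20), which is 6 members or 11.3%, against 5.53% of all genes. Without animal 6 each of these 6 differences was smaller in size. The count of 6 rests on single animals: it was 1 without animal 6, 2 without animal 7, and 7 without animal 9. It was 3 without animal 10, without animal 24, with no filter or under quantile normalization. The adjusted p of Col1a1 and of Col5a3 was 0.830 by limma. The 11 signs come from the same animals and are not 11 separate observations, and the 3 comparisons share the GnRH females or the GnRH males. With placebo, 7 of 11 fibrillar genes had a positive male minus female difference, against 48.8% of all genes. The fibroblast marker list was on the same side as these genes: 8 of 9 markers were lower in GnRH males than in GnRH females, none past the threshold, with list means of 8.41 to 8.75 in GnRH males and 8.41 to 8.96 in GnRH females. So were 4 of 6 meninges and capsule markers and 10 of 10 posterior lobe markers, Col25a1 included, none past the threshold. Other lists leaned to that side too. Positive differences were 4 of 16 for basement membrane partners such as nidogens, 3 of 13 for matrix proteases and 3 of 10 for hormone cell markers. They were 8 of 15 for receptors of collagen and laminin and 7 of 10 for the transforming growth factor beta pathway, with the remaining lists in between. The part of fibroblasts, meninges and posterior lobe in the fibrillar values was not tested.

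Among the other types, Col6a6 and Col19a1 had the smallest unadjusted p. Col6a6, a chain of type VI collagen with a low level, was at 5.02, 4.88, 5.09, 5.09 and 4.88 in placebo females and ran from 5.02 to 5.43 in GnRH females, from 5.02 to 5.23 in placebo males and from 4.97 to 5.16 in GnRH males. Its GnRH difference was 0.14 in females (SE 0.06, adjusted p = 0.467 by limma) and -0.08 in males. The difference between these was -0.23 (SE 0.08, unadjusted p = 0.0110, adjusted p = 0.999 by limma). Animal 9, at 5.43, set the upper end of the GnRH females. Col19a1, a fibril-associated collagen, was at 5.72, 5.33, 5.74, 5.63 and 5.66 in placebo females and ran from 5.59 to 6.53 in placebo males, a sex difference of 0.32 (SE 0.12, unadjusted p = 0.0136, adjusted p = 0.999 by limma). Animal 15 had the 6.53, and the groups overlapped. Col6a6 also differed between the sexes with placebo, by 0.13 (adjusted p = 0.999 by limma), and these were the 2 members with an unadjusted p under 0.05 there (3.77%, against 3.07% of all genes). The count of such members was 0 without animal 15 and 1 without animal 2, 5 or 16, under quantile normalization or with array weights. It was 3 without animal 13 or 14. In the averaged comparison the other types with the smallest p were 4 genes: Col14a1 differed by 0.14 averaged, Col6a4 by 0.10, Col9a2 by -0.10 and Col26a1 by -0.10, each with an interval that included 0.

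The genes around collagen and laminin were measured in lists of fixed membership. Of 28 tested enzymes and chaperones that modify, fold, secrete or cross-link collagen, none passed in any comparison, and their averaged differences ran from -0.17 to 0.09. None of 16 basement membrane partners such as nidogens and perlecan passed (range -0.25 to 0.19), and none of 13 matrix proteases passed (range -0.12 to 0.11). Of 15 receptors of collagen and laminin, 1 rose in the averaged comparison: Itga2, the alpha 2 integrin chain that binds collagen, with means of 5.22 and 5.54 in placebo and GnRH females and 5.21 and 5.64 in placebo and GnRH males. Its averaged difference was 0.38 (SE 0.10, adjusted p = 0.0412 by limma), and the adjusted p lay above the threshold in 23 of 33 alternatives, reaching 0.117. Of 10 genes of the transforming growth factor beta pathway and its targets, 1 rose: Tgfb1, a ligand that in many tissues raises collagen transcription. Its means were 7.72 and 8.14 in placebo and GnRH females and 7.77 and 7.99 in placebo and GnRH males, an averaged difference of 0.32 (SE 0.07, adjusted p = 0.0107 by limma, at most 0.0282 among 33 alternatives). The collagen genes Col1a1, Col1a2 and Col3a1 had averaged differences of -0.02, -0.04 and -0.07 in the same animals.

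Between animals of the same group, by contrast, most of the chain pairs examined varied together. The residual SD around the 4 group means ran from 0.07 for Col9a1 to 0.48 for Col25a1, with a median of 0.19. For 11 pairs of chains, values were centred on their group means and correlated over the 25 animals, with p-values from 100000 permutations within groups, adjusted over the 11 pairs. Of the 11 pairs, 8 passed. Pairs of other genes were not correlated in this way, so the share that would pass among all genes is unknown. Col4a1 and Col4a2 had r = 0.92 and rho = 0.90, each with p = 1e-05, the smallest the permutations can give (adjusted 2.2e-05 and 3.67e-05), and r = 0.87 without the 2 animals farthest from the median of Col4a1. Col4a3 and Col4a4 had r = 0.83 and rho = 0.84 with the same p of 1e-05, and r = 0.82 without the 2 farthest animals. Col4a5 and Col4a6, whose starts are the farthest apart, had r = 0.40 (p = 0.0743, adjusted 0.0818) and rho = 0.28 (p = 0.206), and r = 0.15 without the 2 farthest animals. The differences between these correlations were not tested.

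Col6a1 and Col6a2 had r = 0.87 (p = 1e-05) and rho = 0.81 (p = 2e-05), with r = 0.77 without the 2 farthest animals, while Col6a1 and Col6a3 had r = 0.33 (p = 0.103) and rho = 0.48 (p = 0.0235, adjusted 0.0323). Without the 2 farthest animals r for Col6a1 and Col6a3 was 0.52 (permutation p = 0.0166, adjusted 0.0203), so whether this pair passes depends on those animals and on the measure. Col1a1 and Col1a2, which form type I collagen together, had r = 0.54 (p = 0.0106, adjusted 0.0145) and rho = 0.44 (p = 0.0411, adjusted 0.0503), with r = 0.55 without the 2 farthest animals. Without animal 6 this r was 0.44 (adjusted p = 0.0570 by permutation), and without animal 14 the pair missed the threshold too. Col1a1 followed Col3a1 with r = 0.80 (p = 1e-05) and rho = 0.86 (p = 2e-05), with r = 0.81 without the 2 farthest animals. Across the classes, Col1a1 and Col4a1 had r = 0.79 and rho = 0.80, both with p = 1e-05, and r = 0.75 without the 2 farthest animals. Lamb1 with Lamc1 had r = 0.65 (p = 0.00048) and rho = 0.68 (p = 0.00072), and Lamb2 with Lamc1 had r = 0.54 (p = 0.00559) and rho = 0.55 (p = 0.00839); without the 2 farthest animals r was 0.54 and 0.56. Col5a1 and Col5a2 had r = 0.44 (p = 0.0466, adjusted 0.0569) and rho = 0.35 (p = 0.114), with r = 0.31 without the 2 farthest animals.

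**Figure D4:**
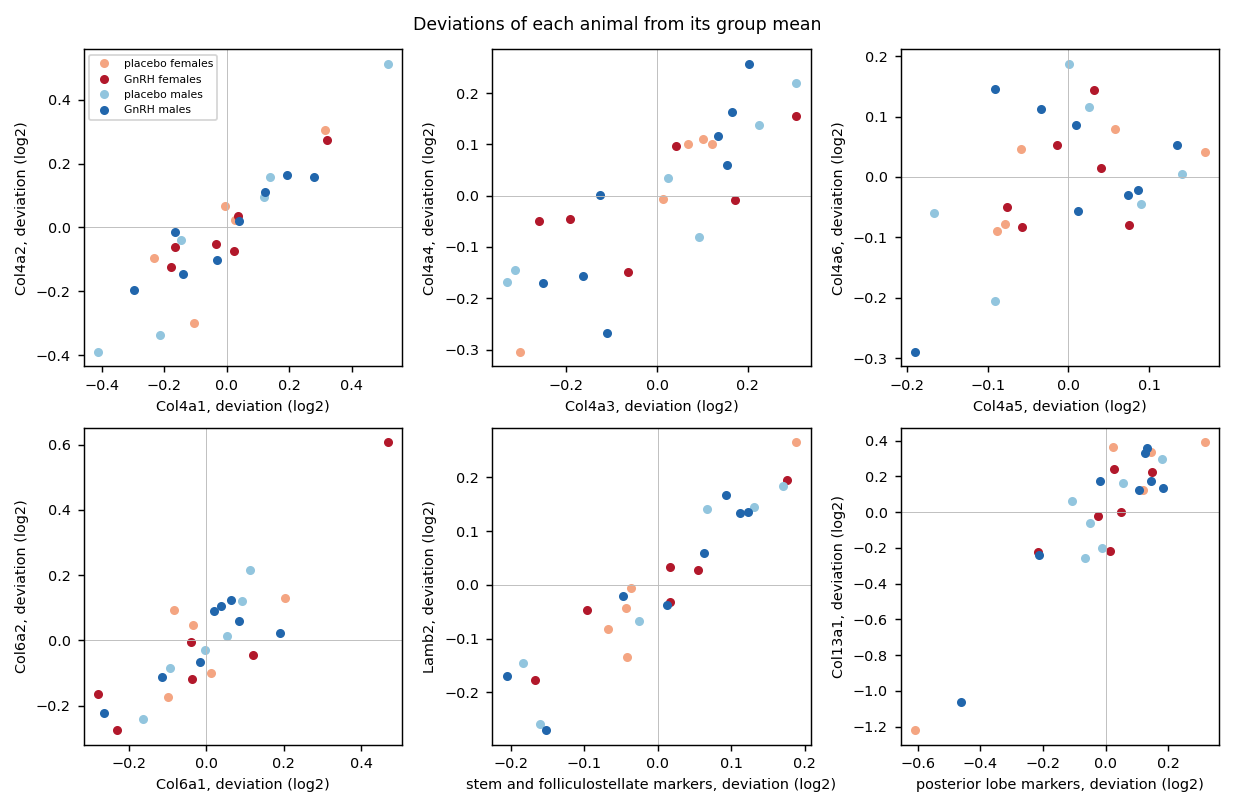
Deviation of each animal from its group mean (log2) for 4 chain pairs and for Lamb2 and Col13a1 against the mean of a marker list, with dots coloured by group. Points fall along a line for Col4a1 with Col4a2 (r = 0.92) and spread for Col4a5 with Col4a6 (r = 0.40), and animals 2 and 19 are the 2 low points of Col13a1.

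Each member was also correlated with the means of 7 marker lists, a family of 371 relations added after the data had been seen. At an adjusted p under 0.05 (permutation within groups, adjusted over the 371), 59 relations passed, 50 positive and 9 negative. They are descriptions of which genes vary together between dissections and carry no cause. Genes other than the members were not correlated with the lists, so the share that would pass among all genes is unknown. The counts are therefore not read as particular to collagen and laminin genes. Depth of the libraries is unknown, and no batch or date is given, so the relations could not be recomputed within batches.

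Most laminin chains and some collagens went with markers of stem and folliculostellate cells, the non-hormonal epithelial cells of the anterior lobe. Of 11 laminin genes, 7 passed with a positive r, among them Lamb2, Lama5, Lama3 and Lamb1. Of the collagens, 1 fibrillar gene and 3 of other types also passed with a positive r. The highest r was 0.61 among fibrillar genes and 0.75 among other types. Lamb2 had r = 0.94 and rho = 0.94 (each p = 1e-05, adjusted 0.00124), and r = 0.95 without the 2 farthest animals. Lama5, the alpha 5 chain, had r = 0.91 and rho = 0.91 (each p = 1e-05, adjusted 0.00124), and r = 0.89 without the 2 farthest animals. Lamb2 values were 10.36, 10.23, 10.28, 10.63 and 10.32 in placebo females, with the list mean at 8.88, 8.87, 8.85, 9.10 and 8.87 in the same order. The highest Lamb2 value there and the highest list mean belonged to animal 4. In the opposite direction 4 genes passed. The fibrillar Col27a1 had r = -0.73 and rho = -0.73 (each p = 0.00025, adjusted 0.00546 and 0.00773), and r = -0.73 without the 2 farthest animals. Col11a1, also fibrillar, had r = -0.62 (p = 0.00254) and rho = -0.66 (p = 0.00112), the type IV chain Col4a3 had r = -0.66 (p = 0.0017) and rho = -0.66 (p = 0.00168), and Col20a1 had r = -0.68 (p = 0.00071) and rho = -0.60 (p = 0.00392); without the 2 farthest animals r was -0.66, -0.74 and -0.57.

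Chains of the 4 transmembrane collagens stay anchored in the cell surface. Of these, Col13a1, Col23a1 and Col25a1 had the widest spread of all members (SD 0.43, 0.45 and 0.48) and went with posterior lobe markers. Col17a1, also of this type, had an SD of 0.12. In all, 10 members passed with the posterior lobe list, 3 fibrillar and 1 basement membrane gene among them. Col13a1 was at 9.81, 8.23, 9.84, 9.57 and 9.79 in placebo females, with animal 2 as the low value, and its lowest, median and highest values in GnRH males were 8.39, 9.61 and 9.81, with animal 19 as the low value. Col25a1 was at 8.00 in animal 2 and 8.21 in animal 19, against 8.97 to 9.99 in the others. Col13a1 had r = 0.92 (p = 6e-05, adjusted 0.00247) and rho = 0.80 (p = 0.00014), and r = 0.68 without animals 2 and 19, the 2 farthest. Col25a1 had r = 0.91 (p = 2e-05, adjusted 0.00159) and rho = 0.67 (p = 0.00148), and r = 0.64 without those animals. The male minus female GnRH effect moved with these animals too. For Col13a1 it was -0.35 with all animals and 0.11 without animals 2 and 19, and for Col25a1 -0.37 and 0.14, none past the threshold.

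Vessel and connective tissue markers also went with members, and the sets were not divided by class. Of the 11 fibrillar genes, 3 passed with endothelial, 3 with fibroblast and 3 with posterior lobe markers, each with a positive r. Endothelial markers went with 10 members, among them Col15a1 (r = 0.66, p = 0.00016, rho = 0.64, p = 0.00143), Col4a1 (r = 0.65, p = 8e-05, rho = 0.67, p = 0.00055) and Col4a2 (r = 0.64, p = 1e-05, rho = 0.74, p = 7e-05). Their adjusted p was 0.00424, 0.0027 and 0.00124, and without the 2 farthest animals r was 0.65 for Col15a1, 0.58 for Col4a1 and 0.64 for Col4a2. Fibroblast markers went with 10 members, the fibrillar Col1a1, Col3a1 and Col5a2 among them. Col3a1 had r = 0.69 (p = 0.00036, adjusted 0.00607) and rho = 0.66 (p = 0.00114), Col5a2 had r = 0.67 (p = 0.00022, adjusted 0.0051) and rho = 0.69 (p = 0.0002), and Col1a1 had r = 0.64 (p = 0.00354, adjusted 0.0299) and rho = 0.57 (p = 0.00578). Without the 2 farthest animals r was 0.61, 0.64 and 0.62, and without animal 6 it was 0.49 for Col1a1. With meninges and capsule markers 1 member passed, a gene of the other types that was not Col6a2. For Col6a2 the values were r = 0.75 (permutation p = 0.0132, adjusted 0.0721) and rho = 0.45 (p = 0.0409), and r = 0.32 without animal 6. The Col6a2 relation rests on that animal, where Col6a2 was at 9.74 against 8.70 to 9.23 in all the others.

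**Figure D5:**
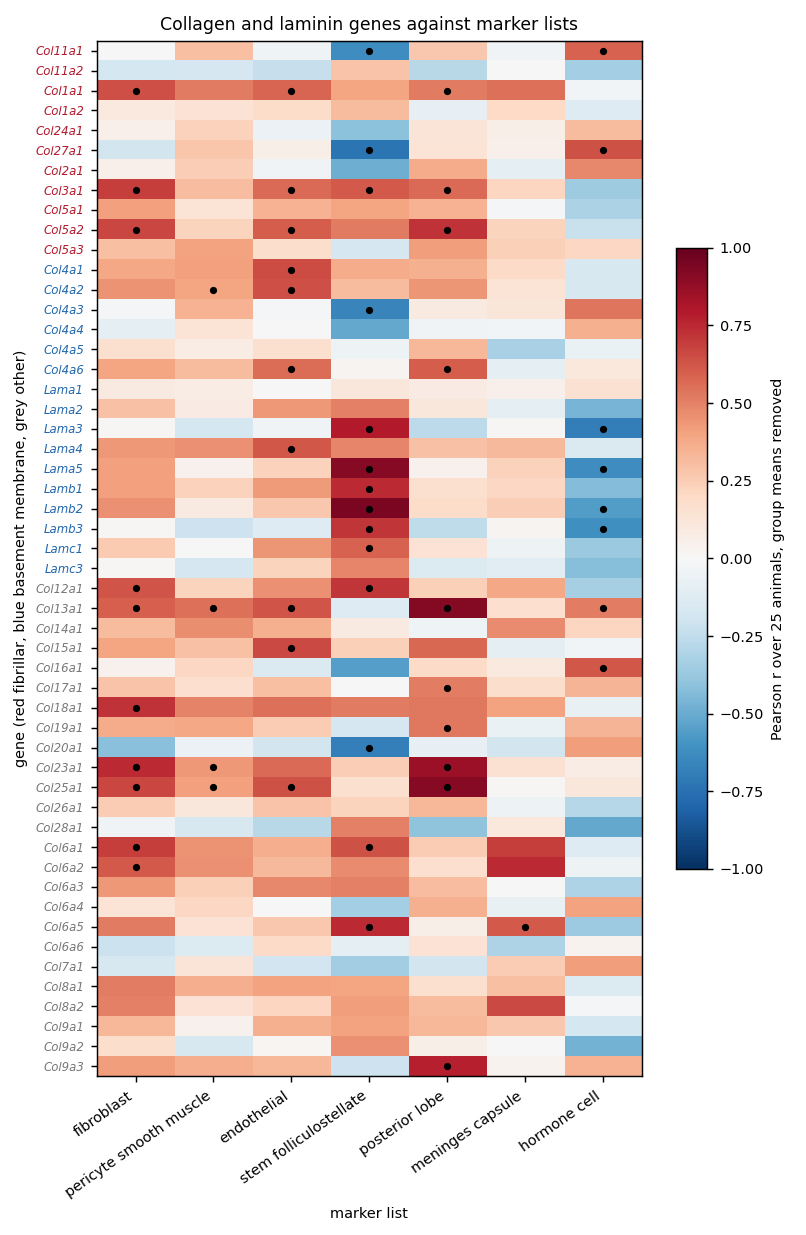
Pearson r over 25 animals, after removal of the group means, of 52 of the 53 genes (y axis) with the means of 7 marker lists (x axis); black dots mark an adjusted p under 0.05. Several but not all laminin genes are clearly red in the stem and folliculostellate column, up to 0.94 for Lamb2. Col13a1, Col23a1 and Col25a1 are red in the posterior lobe column.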

How the data were processed

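Polyadenylated RNA of 25 pituitaries was sequenced after depletion of ribosomal and globin transcripts, per the labels' protocols. The values deposited by the authors are rlog values, regularized log2 counts in which differences of genes with few reads are pulled towards 0, so that low genes have understated differences. The build was mm10 and the tools were bcl2fastq, STAR and featureCounts, per the submitters' processing notes. Their versions, the strand setting and the annotation were not given in the sources used here. Depth is unknown, since only rlog values were used. The series text speaks of fewer animals per condition than the 8 labelled GnRH males, and the labels were followed.

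For genes with a mean of at least 3, limma 3.58.1 (R 4.3.3) was fitted to the 4 group means of all 25 animals, with a variance trend on the mean, 21 residual degrees of freedom and two-sided Benjamini-Hochberg adjusted p-values over 19141 genes. The limma p-values set differences of group means against the spread between animals within groups. Those of the correlations come from permuting animals within groups. Correlations used Python 3.11.15 with numpy 2.4.6. Both were tested on simulated data. Alternatives were other filters, quantile normalization, other variance models, array weights and leaving out animals. Named were members with the smallest p in each class and comparison (30 genes), plus 7 fixed ones among them; Col13a1, Col23a1, Col24a1, Col25a1, Lamb2, Lama5 and others named for level or correlation were chosen after their values were seen. The members and all lists were chosen with earlier results of these data known. 1 member is counted throughout, but its own values are not reported here. Positions are from GENCODE (GRCm38), promoters from RefSeq (GRCm38.p6).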

Additional observations from a re-analysis of the deposited data

Results flagged for a closer look

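The values of the 30 members chosen by rule were searched in each of the 4 groups for an animal that stands far from the others of its group, by its gap to the nearest animal relative to the group's range. Of 120 sets of values, 12 held such an animal (10%). About 1 in 20 is found by chance, and the share was 5.32% over the 76564 sets of all genes tested and 9.43% over all 53 members. The 30 genes were chosen largely by their p-values and the sets share animals, so nothing is read from the excess. They came from 9 animals. Animal 2 was lowest among the placebo females in Col19a1 (5.33) and in Col2a1 (7.63), and animal 4 was lowest in Col4a3 (9.17). Among GnRH females, animal 6 was highest in Col6a2 (9.74) and animal 9 in Col6a6 (5.43). Among placebo males, animal 14 was highest in Col1a2 (12.49), animal 15 in Col6a4 (6.18) and animal 17 in Lama1 (8.71). Among GnRH males, animal 18 was highest in Col11a2 (9.11) and Col9a1 (4.62), and animal 25 in Lama4 (8.53) and Lamb1 (9.61).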

How the results depend on the processing

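The count of members past the threshold was 0 in all 6 comparisons under every alternative run, leaving out each animal in turn included; the smallest adjusted p among members in those leave-out fits was 0.0729 (limma, averaged over the sexes). Of the 53 differences, up to 12 in females and 8 in males turned sign when 1 animal was left out. The number of chain pairs past the threshold, 8 of 11, was 5 within females, where Col1a1 with Col1a2, Lamb1 with Lamc1 and Lamb2 with Lamc1 missed it, and 7 to 9 with 1 animal left out; the count within females rests on fewer animals. Over all genes, the calls moved from 19 to between 4 and 67 in females, from 95 to between 42 and 239 in males and from 327 to between 223 and 942 averaged. The cause was not tested. The fit to only the groups compared has no counterpart for the averaged comparison or the difference between the sexes and was not run there. The fits without animals 2 and 19, and without animal 6, were chosen after seeing the data. No paired analysis was possible because the animals carry different numbers in each group. Depth, which is unknown, limits low genes such as Col6a5 most.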

Other observations

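Hormone cell markers showed the reverse of the stem and folliculostellate pattern between animals. Of the 17 basement membrane genes, 5 passed with a negative r, all of them laminin chains, Lama3 and Lama5 among them. Lama3, an alpha chain of epithelial laminin, had r = -0.69 (p = 0.00066, adjusted 0.00844) and rho = -0.67 (p = 0.00082), and r = -0.61 without the 2 farthest animals. The fibrillar Col27a1 had r = 0.64 (p = 0.00248, adjusted 0.0236) and rho = 0.65 (p = 0.00202) with the hormone cell list, and r = 0.59 without the 2 farthest animals. Col11a1, also fibrillar, had r = 0.59 (p = 0.00417, adjusted 0.0329) and rho = 0.60 (p = 0.00229), and r = 0.51 without the 2 farthest animals. These relations are part of the 371 computed after the data had been seen.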
